A study of Rattus norvegicus with 44 samples.

Results

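The subject is how the transcripts of rat blood differed between 1 day and 3 h after amphetamine (AMPH). It rests on 8 arrays of 44 in the series: 4 of blood taken 1 day after AMPH and 4 of blood taken 3 h after it. They were chosen by their treatment, tissue and time labels alone and were read beside 4 arrays of 1 day and 4 of 3 h after saline, and beside 4 and 4 after environmentally-induced hyperthermia (EIH), in which rats were made hot by their surroundings. All were male Sprague-Dawley rats of the NCTR strain, 3 months old, and their trunk blood was collected at decapitation. Each blood array carried RNA of 1 rat. The series describes the AMPH doses as neurotoxic, and the sources used here do not give their size. The comparison addresses which parts of the early blood response were still present a day later.

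Amphetamine releases catecholamines and can raise body temperature to harmful levels. In the heat shock response, the transcription factor Hsf1 binds repeats of the short element nGAAn in promoters and switches on chaperones, the proteins that keep other proteins folded. Stress hormones and catecholamines also change which white cells circulate, typically with more neutrophils and fewer lymphocytes, and whole blood RNA reads both the cells present and their activity. In these bulk samples, fewer cells of a type and less RNA per cell cannot be told apart.

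Values are log2 intensities after each array was shifted to the same median, because the deposited medians lay at 165 to 171 intensity units on the blood arrays of 1 day and at 139 to 146 on those of 3 h. Time and scaling set cannot be told apart in any comparison of the times, and the saline times are read beside the AMPH times for that reason. The arrays carried blood by their markers: before the shift, the erythroid gene Hemgn lay between 13.35 and 14.20 on the 24 blood arrays, against 3.62 to 8.16 on the 20 choroid plexus arrays. One label of the blood samples names the striatum, a brain region. Arrays of the AMPH rats did not group tightly by time, as the plot of principal components shows. On component 1, which held 23.99% of the variance over 6735 genes, AMPH 1 day replicates 1 and 2 lay at -16.2 and -19.3 among the saline arrays. AMPH 1 day replicate 3 lay at 25.1 and replicate 4 at 4.8. The 4 AMPH 3 h arrays lay at 21.2, 36.4, 14.9 and 48.5, so AMPH 1 day replicate 3 fell among them. Saline 1 day replicate 4 stood apart on component 2, at -86.2, and had 17.1% of its cells blank, the most of the saline 1 day arrays, whose lowest share was 7.89%. Deposited values are coarse at the low end: an array held 980 to 1936 distinct values among 11654 to 13759. Of the 8 AMPH rats, 5 are also listed in choroid plexus pools of the same time. In addition, 1 rat of saline 1 day is listed in a saline 3 h pool and 1 of EIH 1 day in an EIH 3 h pool. Rats of EIH 1 day replicates 1, 2 and 3 are also listed in 1 day pools whose titles say Control and whose source names say EIH. The labels or numbers of these saline and EIH rats are in doubt.

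**Figure D1:**
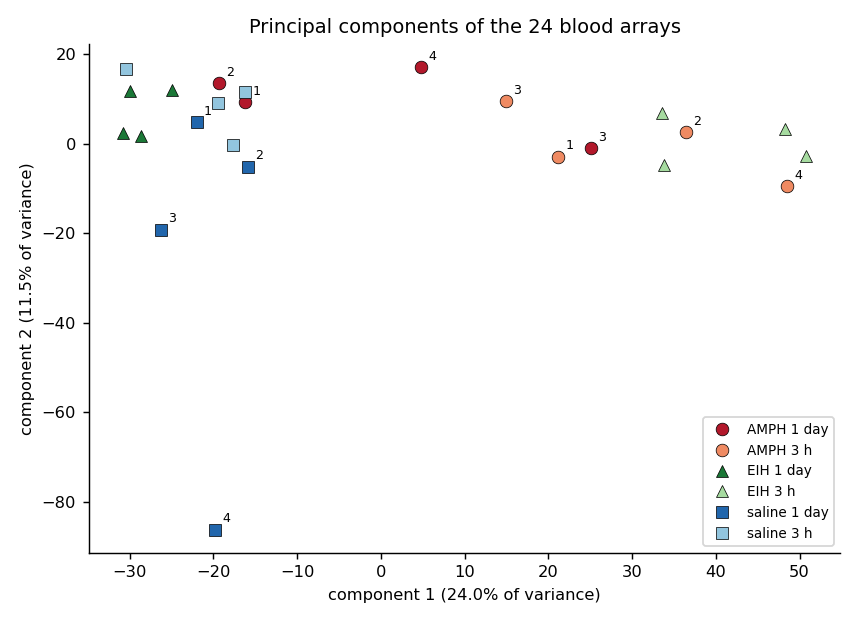
Principal components 1 (horizontal, 23.99% of the variance) and 2 (vertical, 11.5%) of the 24 blood arrays, in component units, computed over 6735 genes; each point is an array, numbers are replicates. AMPH 1 day replicate 3 at 25.1 lies among the AMPH 3 h arrays, replicates 1 and 2 lie among the saline arrays, and saline 1 day replicate 4 lies far below the rest.

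Between 1 day and 3 h after AMPH, 187 of 9937 genes differed (1.88%; limma over all 24 blood arrays, Benjamini-Hochberg adjusted p under 0.05). Of these, 77 were higher and 110 lower at 1 day, 117 by at least 2-fold, and the median over all genes tested was 0.01. The falls included the chaperonin genes Hspe1 and Hspd1, the AP-1 gene Fos, the cytokine gene Osm and the glycolytic gene Eno1. The rises included the cold-inducible RNA-binding gene Cirbp, the macrophage receptor gene Adgre1 and the DNA repair genes Nthl1 and Neil1. The split by direction followed the scaling: 183 higher and 57 lower with the values as deposited, 42 and 52 with quantile normalization, 128 and 78 with the same 75th percentile, and 35 and 212 with each array's median over every probe it measured. With the median over every probe the median over all genes was -0.12, with the values as deposited it was 0.13, and each difference given here is relative to a median near 0. Groups did not overlap for 169 of the 187 genes, blanks ignored, and for 13.2% of all genes with 8 values. The same arrays made the calls, so the 169 is a description. A fit of the 8 AMPH arrays alone called 0 genes by limma, with 1521 at an unadjusted p under 0.05, so the calls draw on the spread shared over the 6 blood groups. The count was 35, 18, 314 and 121 without AMPH 1 day replicates 1 to 4, was 35 and 45 without AMPH 3 h replicates 2 and 4, and was 320 without saline 1 day replicate 4.

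Of 27 heat shock and chaperone genes tested, 6 were lower at 1 day than at 3 h and 0 were higher, where 1.11% of all genes were lower. The median of the list was -0.68, against -0.18 after saline, where 0 of 26 were called, and 22 of the 27 differences after AMPH were below 0. The 6 genes were Hspe1, Hspd1, Hspb1, Dnaja1, Hspa4 and Zfand2a, the last named after its values were seen. The count was 2, 1 and 2 without AMPH 1 day replicates 1, 2 and 4, and 1 and 2 without AMPH 3 h replicates 2 and 4.

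Promoters of 4 of these genes are shown because they differ in the element that Hsf1 reads, from 250 bases before to 50 after the gene's start (RefSeq, GRCr8), 5′ to 3′ on the gene's strand, with capitals marking the fixed letters of each GAANNTTC or TTCNNGAA match, pairs of the element in opposite orientation, searched on both strands. Hspe1 lies at chr9:64084077-64084376 on the plus strand, Hspb1 at chr12:26432252-26432551 on the minus strand, Dnaja1 at chr5:60638154-60638453 on the plus strand and Hspa4 at chr10:37949786-37950085 on the minus strand.
Hspe1: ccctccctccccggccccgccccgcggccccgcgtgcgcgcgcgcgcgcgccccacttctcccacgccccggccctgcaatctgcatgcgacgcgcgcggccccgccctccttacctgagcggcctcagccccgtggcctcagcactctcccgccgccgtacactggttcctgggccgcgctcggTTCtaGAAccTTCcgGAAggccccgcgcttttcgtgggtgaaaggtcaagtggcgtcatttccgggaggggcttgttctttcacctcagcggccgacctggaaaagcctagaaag
Hspb1: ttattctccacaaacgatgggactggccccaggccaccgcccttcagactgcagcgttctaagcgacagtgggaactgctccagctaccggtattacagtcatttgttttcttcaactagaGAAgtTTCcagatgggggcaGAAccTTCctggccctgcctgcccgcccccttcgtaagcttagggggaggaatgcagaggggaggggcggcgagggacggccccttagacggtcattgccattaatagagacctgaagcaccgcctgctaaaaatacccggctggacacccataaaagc
Dnaja1: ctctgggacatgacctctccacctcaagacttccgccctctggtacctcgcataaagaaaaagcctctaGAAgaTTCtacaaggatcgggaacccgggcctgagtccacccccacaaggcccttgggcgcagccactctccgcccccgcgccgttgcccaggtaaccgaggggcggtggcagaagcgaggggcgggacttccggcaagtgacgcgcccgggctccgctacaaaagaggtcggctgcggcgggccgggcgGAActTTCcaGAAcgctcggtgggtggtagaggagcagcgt
Hspa4: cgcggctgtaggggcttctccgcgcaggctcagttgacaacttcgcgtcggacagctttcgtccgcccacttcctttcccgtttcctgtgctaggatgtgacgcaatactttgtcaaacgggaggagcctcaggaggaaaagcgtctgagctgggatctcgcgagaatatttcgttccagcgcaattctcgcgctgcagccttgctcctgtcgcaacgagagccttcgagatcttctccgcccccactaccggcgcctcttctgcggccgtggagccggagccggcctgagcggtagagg
Hspe1 and Hspd1 start next to each other on opposite strands, and their windows share 211 bases, including the run of 3 matches in Hspe1. At least 1 match was present in 15.85% of 33469 RefSeq promoters of 300 bases and in 11.78% of the 8144 tested genes with a promoter. It was present in 17 of the 22 tested heat shock genes with a promoter, of which 5 of 6 called and 12 of 16 not called. A longer run, in which 1 more alternating element follows at the same spacing, was in 0.798% of promoters and in 7 of the 22 heat shock promoters, of which 3 belong to called genes (Hspe1, Hspd1 and Dnaja1). Hspa4 had no match in this window. A match describes these letters only.

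The divergent pair encodes the chaperonin of mitochondria, Hspd1 (Hsp60) and its lid Hspe1 (Hsp10). Hspe1 measured 12.28, 12.01, 11.93 and 11.83 at AMPH 1 day, against 13.71, 14.79, 12.18 and 14.61 at AMPH 3 h. The third AMPH 3 h array was the low one and lay within the 1 day range, and the difference was -1.81 ± 0.44 (estimate ± standard error, adjusted p = 0.0407). Hspd1 measured 9.22, 9.27, 9.17 and 8.82 at AMPH 1 day, against 10.45, 13.07, 9.76 and 12.38 at AMPH 3 h, and fell by 2.30 ± 0.57 (adjusted p = 0.0427) with no overlap. Saline arrays lay between 7.83 and 9.66 for Hspd1, so the AMPH 1 day arrays were within the saline range.

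Hspb1, the small heat shock protein Hsp27, measured 7.48, 7.60, 9.54 and 8.03 at AMPH 1 day, against 10.86, 12.13, 8.64 and 12.55 at AMPH 3 h (difference -2.88 ± 0.67, adjusted p = 0.0363). The highest 1 day array, replicate 3, exceeded the lowest 3 h array, also numbered 3. Zfand2a (AIRAP), a stress-induced partner of the proteasome, measured 7.51, 7.01, 8.53 and 7.76 at AMPH 1 day, against 10.72, 12.43, 8.21 and 11.93 at AMPH 3 h, and fell by 3.12 ± 0.77 (adjusted p = 0.0407). The same pair of arrays overlapped for Zfand2a. By the fit, AMPH 3 h over AMPH 1 day was 7.38-fold for Hspb1 (95% interval 2.79 to 19.5) and 8.68-fold for Zfand2a (2.87 to 26.2).

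Between the saline times, the differences were 0.18 for Hspe1, -0.56 for Hspd1, 0.37 for Hspb1 and 0.49 for Zfand2a, none of them called. The AMPH difference was not called different from that of saline for any of these 4 (adjusted p from 0.122 for Hspb1 to 0.322 for Hspd1).

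Dnaja1, a co-chaperone of Hsp70, behaved evenly across arrays. It measured 12.82, 13.30, 12.81 and 13.41 at AMPH 1 day, against 14.42, 15.18, 14.35 and 14.76 at AMPH 3 h, and fell by 1.59 ± 0.25 (adjusted p = 0.00399), while the saline difference was -0.04 (difference between them -1.55, adjusted p = 0.0541). It remained above saline at 1 day, where the saline arrays measured 11.66, 12.23, 11.82 and 11.82 (AMPH 1 day minus saline 1 day 1.20, adjusted p = 0.0201). Dnajb1, another co-chaperone of Hsp70, measured 12.40, 12.39, 11.05 and 11.71 at AMPH 1 day, against 12.13, 12.50, 10.30 and 12.44 at AMPH 3 h. Its difference between the times was 0.05 ± 0.42 (adjusted p = 0.970), and it stood 2.36 above saline at 1 day (adjusted p = 0.00742) and 2.14 above it at 3 h (adjusted p = 0.00396). The inducible Hsp70 gene Hspa1b measured 11.97, 11.47, 12.42 and 11.76 at AMPH 1 day, against 14.76, 15.97, 13.22 and 16.02 at AMPH 3 h. These groups did not overlap, but the difference of -3.09 ± 0.98 missed the threshold (adjusted p = 0.102), and at 3 h replicates 2 and 4 were near the top of the measurable range.

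Hspa4, a member of the Hsp110 family of nucleotide exchange factors, fell by 2.14 ± 0.42 (adjusted p = 0.0166). It measured 10.90, 10.95, 11.15 and 10.28 at AMPH 1 day, against 13.36, 13.41, 12.65 and 12.40 at AMPH 3 h. In saline it measured 13.04, 12.34, 12.10 and 10.60 at 1 day, against 10.72, 10.56, 10.86 and 10.77 at 3 h. It was thus high on 3 of 4 saline 1 day arrays. The less bright probe of Hspa4 differed by -0.59 after AMPH and by -0.33 after saline.

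**Figure D2:**
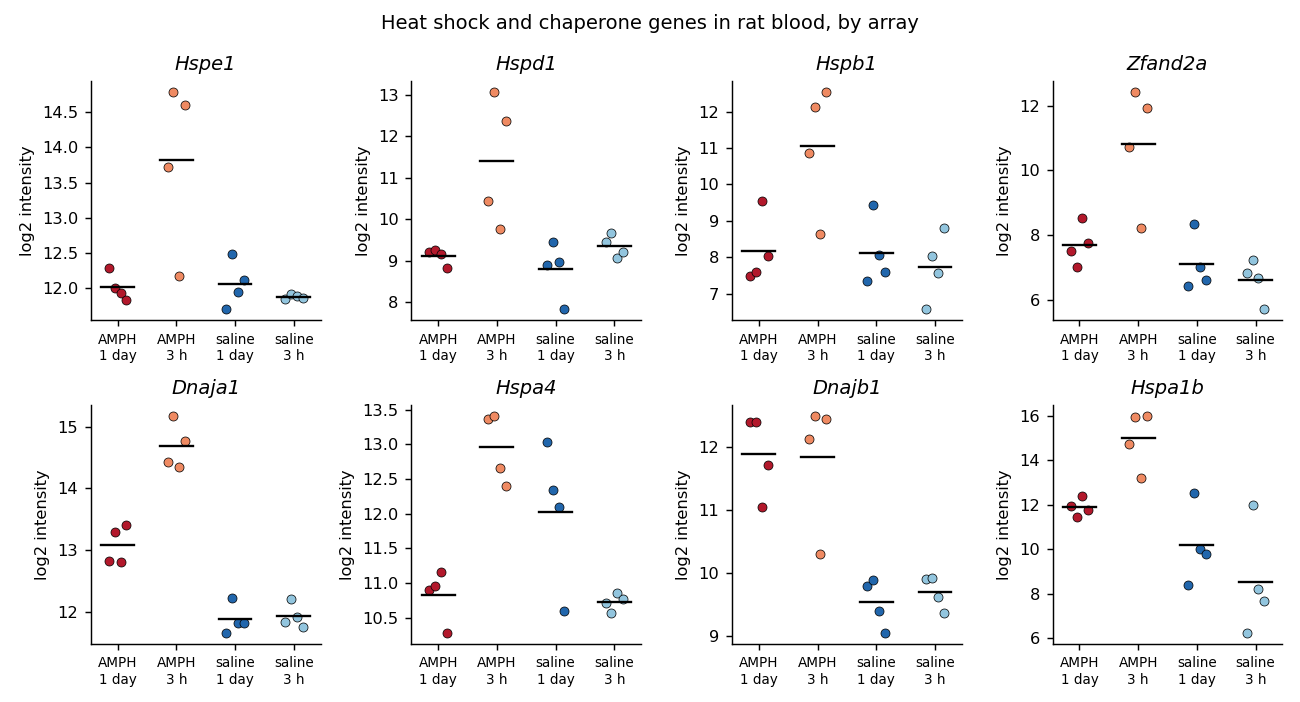
Log2 intensity (vertical) of 8 heat shock and chaperone genes on each array of AMPH 1 day, AMPH 3 h, saline 1 day and saline 3 h (points; bars are group means). Hspe1, Hspd1, Hspb1 and Zfand2a are high on 3 of the 4 AMPH 3 h arrays, Dnajb1 is as high at AMPH 1 day as at AMPH 3 h, and Hspa4 is also high on 3 saline 1 day arrays.

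Over 24 heat shock and chaperone genes with all values, the list mean relative to saline 3 h was 0.97, 0.98, 0.76 and 0.79 on the AMPH 1 day arrays, against 2.05, 2.74, 0.76 and 2.30 on the AMPH 3 h arrays. AMPH 3 h replicate 3 thus lay at the level of the 1 day arrays. All 4 AMPH 1 day arrays lay above the saline 1 day arrays, whose means ran from -0.56 to 0.60. Set against saline of the same time, 8 of the list's genes were higher and 0 lower at AMPH 1 day (background 2.10% in either direction and 1.55% higher), and 15 were higher and 1 lower at AMPH 3 h (background 4.68%).

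Among 25 immediate early genes, which are switched on within minutes of a stimulus, 3 fell (Ier3, Fosl2 and Fos), where 1.11% of all genes fell, and 1 rose (Klf4), where 0.775% did. The median was -0.88, and -0.56 without AMPH 3 h replicate 4. Fos, a subunit of the transcription factor AP-1, measured 8.63, 8.12, 8.87 and 9.87 at AMPH 1 day, against 10.17, 11.60, 9.997 and 10.64 at AMPH 3 h, without overlap (difference -1.73 ± 0.42, adjusted p = 0.0395). Klf4, a transcription factor of myeloid differentiation, rose by 1.09 ± 0.23 (adjusted p = 0.0213), with 11.31 to 11.85 at AMPH 1 day against 10.01 to 10.87 at AMPH 3 h. The saline differences of these genes, none called, were 0.27 for Ier3, 0.25 for Fosl2, -0.95 for Fos and 0.65 for Klf4. Of 21 genes of endoplasmic reticulum stress, 3 fell (the secreted survival factor Manf, the glutathione-degrading enzyme Chac1 and the chaperone Hsp90b1) and 0 rose, against the same shares. The median was -0.52, and -0.32 without AMPH 3 h replicate 2 and -0.33 without AMPH 1 day replicate 3. In both lists 0 genes were called without AMPH 1 day replicate 1 or 2 or AMPH 3 h replicate 2 or 4. Chac1 fell by 1.53 ± 0.36 after AMPH (adjusted p = 0.0357) and by 1.56 after saline (adjusted p = 0.0451). The difference between those values was 0.02 (adjusted p = 0.990).

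Of 23 genes of metallothioneins and oxidative defence, 2 fell and 0 rose, where 1.11% and 0.775% of all genes did. After saline, 2 of 23 were called lower as well, where 0.494% of all genes were. Sod2, the superoxide dismutase of mitochondria, measured 9.997, 9.62, 10.62 and 9.95 at AMPH 1 day, against 11.63, 11.60, 11.64 and 11.80 at AMPH 3 h, and fell by 1.62 ± 0.22 (adjusted p = 0.00202). It fell by 0.96 after saline too (adjusted p = 0.0451), and the 2 falls were not called different (adjusted p = 0.326). Nfe2l2 (Nrf2), the master regulator of antioxidant genes, measured 10.02, 10.30, 10.66 and 10.69 at AMPH 1 day, against 11.54, 11.72, 11.19 and 11.85 at AMPH 3 h (difference -1.16 ± 0.21, adjusted p = 0.00957), and differed by -0.08 after saline (adjusted p = 0.907). Of 27 hypoxia and glycolysis genes, 3 fell, against 1.11% of all genes: the glycolytic enzymes Eno1 (difference -1.002 ± 0.203, adjusted p = 0.0202) and Gapdh (-0.69 ± 0.16, adjusted p = 0.0367), and the angiogenic factor Vegfa (-1.26 ± 0.32, adjusted p = 0.0452). The median of that list was -0.49 after AMPH and -0.50 after saline. After saline, 2 of 26 genes of the list were called lower, where 0.494% of all genes were. The saline differences of the 3 genes named here, none called, were -0.51 for Eno1, -0.57 for Gapdh and 0.32 for Vegfa. The cell cycle inhibitor Cdkn1a was the single called gene of 25 in the glucocorticoid response list, where 1.11% of all genes fell. Cdkn1a fell by 2.52 ± 0.59 (adjusted p = 0.0363), and AMPH 1 day replicate 3, at 9.79, overlapped the AMPH 3 h range of 9.47 to 11.34. Its saline difference was -1.08 (adjusted p = 0.392). None of these 4 genes was called without AMPH 1 day replicate 1 or 2 or AMPH 3 h replicate 2 or 4.

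Hcar2, a receptor for niacin and ketone bodies on neutrophils and macrophages, measured 5.99, 5.56, 5.56 and 4.56 at AMPH 1 day, against 8.38, 10.23, 8.02 and 9.39 at AMPH 3 h, and fell by 3.59 ± 0.60 (adjusted p = 0.00870), the largest fall among called genes with 3 or more values a group and no overlap. The 7 saline arrays with a value lay between 3.94 and 6.83, which covers all 4 AMPH 1 day arrays. Retnlg, a resistin-like protein of rodent marrow and neutrophils, measured 9.67, 10.10, 10.09 and 10.29 at AMPH 1 day, against 12.19, 12.63, 12.04 and 12.14 at AMPH 3 h. It fell by 2.21 ± 0.35 (adjusted p = 0.00399), or 4.63-fold (95% interval 2.80 to 7.66), and no array of either group came near the other group. Stfa2l3, a stefin A-like protease inhibitor, fell by 2.44 ± 0.54 (adjusted p = 0.0300), though AMPH 1 day replicate 3 stayed at 13.17, against 13.78 to 14.10 at AMPH 3 h. Of 35 cytokine and chemokine genes, 2 fell, where 1.11% of all genes did. They were Osm, the interleukin 6 family cytokine oncostatin M (difference -1.88 ± 0.46, adjusted p = 0.0407), and Il1b, interleukin 1 beta (-1.06 ± 0.27, adjusted p = 0.0487). The count was 0 without AMPH 1 day replicate 1 or 2 or AMPH 3 h replicate 2 or 4. Il1b measured 13.29, 13.33, 13.36 and 14.52 at AMPH 1 day, against 14.83, 14.88, 14.50 and 14.55 at AMPH 3 h, so that AMPH 1 day replicate 4 reached the 3 h level. Between the saline times, the differences, none called, were -0.55 for Retnlg, -1.10 for Stfa2l3, -0.31 for Osm and -0.57 for Il1b.

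Neutrophil markers as a list were not called. Of 19 neutrophil genes tested, 0 passed in either direction, with 15 of 19 differences below 0 and a median of -0.75 after AMPH and of -0.41 after saline, where 14 of 18 differences were below 0. Over 16 of them the mean relative to saline 3 h was 0.07, 0.20, 1.66 and 0.85 on the AMPH 1 day arrays, against 1.31, 1.29, 1.43 and 1.87 on the AMPH 3 h arrays. Replicates 1 and 2 of AMPH 1 day were near saline, and replicates 3 and 4 were not. Without AMPH 1 day replicate 3, 4 neutrophil genes were lower and 1 was higher (median -1.17), in a fit that called 193 of 9652 genes lower, and without AMPH 1 day replicate 1 the median was -0.41 with 0 called. The alarmin S100a8 measured 13.32, 13.43, 15.75 and 14.92 at AMPH 1 day, against 15.35, 15.26, 15.08 and 15.71 at AMPH 3 h (difference -0.998 ± 0.41, adjusted p = 0.213). The same 2 arrays that stayed high in neutrophil genes were the lowest 1 day arrays in T cell genes, as the plot of list means shows.

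Of 18 T cell genes, 0 were called, 17 differences were above 0 and the median was 0.50, against -0.41 after saline. It was 0.15 without AMPH 3 h replicate 4, 0.30 without AMPH 1 day replicate 1 and 0.80 without replicate 3 of AMPH 1 day or AMPH 3 h. Their mean over 14 genes was -0.95, -1.14, -2.09 and -1.82 on the AMPH 1 day arrays, against -2.02, -1.89, -1.23 and -2.81 on the AMPH 3 h arrays, while saline 1 day ran from -0.93 to -0.25. Every AMPH array therefore lay below every saline array, and the AMPH times overlapped. The margin was narrow, with AMPH 1 day replicate 1 at -0.95 and saline 1 day replicate 4 at -0.93. Cd3e, a chain of the T cell receptor complex, measured 9.02, 9.16, 8.18 and 8.37 at AMPH 1 day, against 7.68, 8.03, 8.82 and 7.13 at AMPH 3 h (difference 0.77 ± 0.39, adjusted p = 0.322). No gene of the lists for B cells (9 tested, median 0.41), NK and cytotoxic lymphocytes (19, median 0.17), MHC class II (11, median 0.46), erythroid cells (18, median -0.31) or platelets (10, median 0.00) was called. The platelet median changed sign with the scaling. The B cell median was 0.09, 0.01 and 0.66 without AMPH 1 day replicates 1, 2 and 3 and 0.15 without AMPH 3 h replicate 4. The NK median was below 0 without AMPH 1 day replicate 2 (-0.24) or AMPH 3 h replicate 4 (-0.09). Pf4, platelet factor 4, differed by -0.09 ± 0.18.

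Of 13 monocyte and macrophage genes, 2 receptors rose and 0 genes fell, where 0.775% of all genes rose. Adgre1 (F4/80) measured 9.90, 10.51, 8.73 and 9.56 at AMPH 1 day, against 8.18, 7.87, 8.21 and 7.84 at AMPH 3 h, and rose by 1.65 ± 0.26 (adjusted p = 0.00399). The saline arrays lay between 9.10 and 9.65, above every AMPH 3 h array. Csf1r, the receptor for macrophage colony-stimulating factor, measured 10.86, 11.12, 10.08 and 10.15 at AMPH 1 day, against 9.65, 8.86, 9.70 and 9.31 at AMPH 3 h, and rose by 1.17 ± 0.27 (adjusted p = 0.0324). For Csf1r all 4 AMPH 1 day arrays lay above the saline range of 8.83 to 9.54 (AMPH 1 day minus saline 1 day 1.08, adjusted p = 0.0379). The saline differences were 0.12 for Adgre1 and 0.19 for Csf1r, neither called. The other 11 genes did not pass, and the median of the list was -0.19. The count was 1 without AMPH 1 day replicate 1 or 2 or AMPH 3 h replicate 2 or 4.

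**Figure D3:**
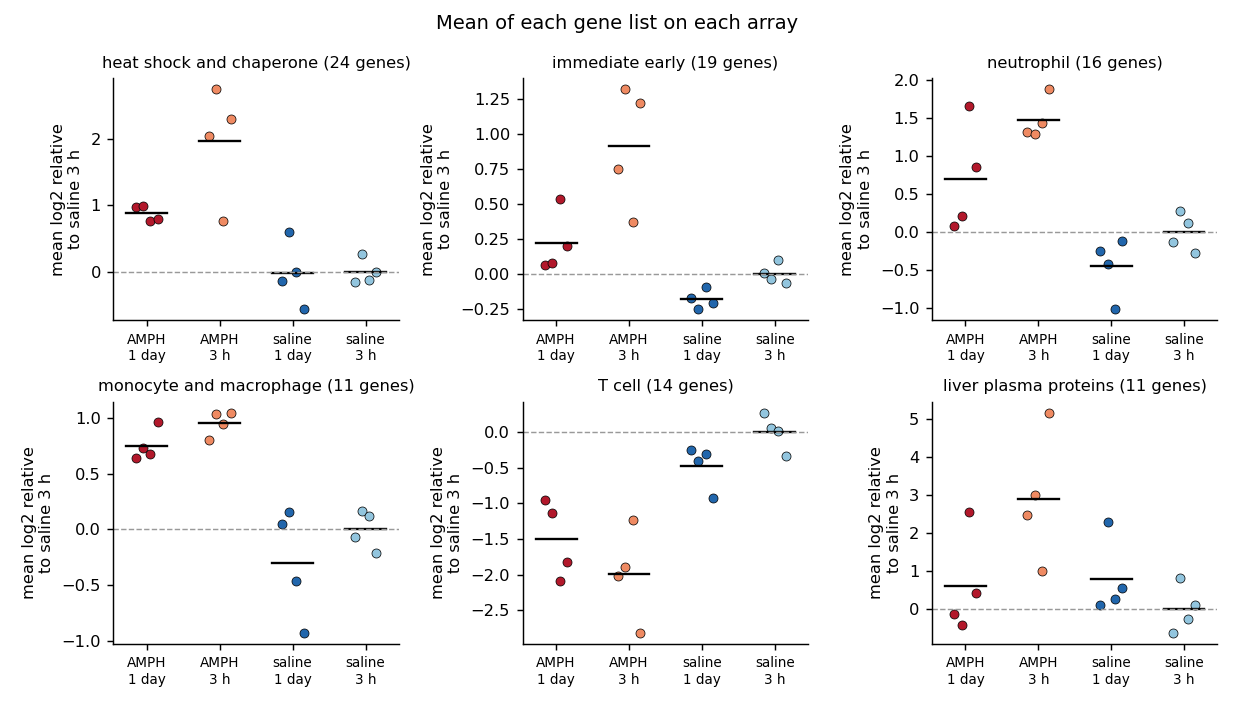
Mean log2 value of 6 gene lists on each array, relative to the mean of saline 3 h (vertical; dashed line at 0), for AMPH 1 day, AMPH 3 h, saline 1 day and saline 3 h (points; bars are group means). AMPH 1 day replicate 3 is the highest 1 day point for neutrophil genes (1.66) and liver plasma protein genes (2.55), and AMPH 3 h replicate 3 is the lowest 3 h point for heat shock genes (0.76).

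Transcripts of liver plasma proteins varied widely between arrays. The median difference was -2.59 over 24 genes, 23 of them below 0, and 0 were called. Over 11 genes with all values the mean relative to saline 3 h was -0.15, -0.42, 2.55 and 0.42 on the AMPH 1 day arrays, against 2.45, 2.98, 1.00 and 5.15 on the AMPH 3 h arrays. AMPH 1 day replicate 3 lay within the 3 h range, and 1 saline 1 day array reached 2.29. Apoa1, the main protein of high density lipoprotein, averaged 6.36 at AMPH 1 day and 8.59 at AMPH 3 h (difference -2.23 ± 0.81, adjusted p = 0.158). The part of these transcripts in the other results was not tested.

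Among the rises with 3 or more values a group and no overlap, that of Cirbp was the largest. Cirbp binds RNA and in cultured mammalian cells is induced by mild cold and repressed by heat. It measured 8.35, 8.28, 9.74 and 7.98 at AMPH 1 day, against 6.72, 3.22, 6.87 and 5.73 at AMPH 3 h, and rose by 2.95 ± 0.60 (adjusted p = 0.0211), or 7.75-fold (95% interval 3.24 to 18.6). Saline arrays lay between 7.44 and 9.06, so all 4 AMPH 3 h arrays lay below the saline range, and AMPH 1 day replicate 3 lay above it (AMPH 3 h minus saline 3 h -2.20, adjusted p = 0.0251). AMPH 3 h replicate 2 lay at the lowest step of its array, where 468 probes share 1 value, so the size of the rise rests partly on that step. The saline difference of Cirbp was 0.74, not called, and its AMPH difference was not called different from that (adjusted p = 0.256).

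Spn (leukosialin, CD43), a mucin of white cell surfaces, measured 12.19, 12.58, 12.18 and 11.73 at AMPH 1 day, against 10.89, 9.23, 10.91 and 10.12 at AMPH 3 h, and rose by 1.88 ± 0.36 (adjusted p = 0.0164). Its saline arrays lay between 11.81 and 12.44, and its less bright probe was higher by 0.72. The DNA glycosylases Nthl1 and Neil1, which start base excision repair, rose by 2.14 ± 0.43 (adjusted p = 0.0207) and 1.87 ± 0.47 (adjusted p = 0.0443). Nthl1 measured 7.64, 7.41, 7.05 and 7.84 at AMPH 1 day, against 6.25, 3.77, 6.19 and 5.18 at AMPH 3 h. Acaa2, a thiolase of fatty acid oxidation in mitochondria, measured 9.52, 9.12, 9.41 and 9.61 at AMPH 1 day, against 6.72, 7.60, 7.88 and 8.02 at AMPH 3 h, and rose by 1.86 ± 0.41 (adjusted p = 0.0278). It was the only called gene of 25 in the fatty acid oxidation and fasting list, where 0.775% of all genes rose. Smc2, a condensin subunit, rose by 1.95 ± 0.38 (adjusted p = 0.0166), Mal by 1.93 ± 0.49 (adjusted p = 0.0452), Herc3 by 2.49 ± 0.52 (adjusted p = 0.0225) and the proteasome subunit Psma7 by 0.86 ± 0.16 (adjusted p = 0.0102). Of the 77 rises, 9 had an AMPH 3 h mean below 5.47, the first quartile of gene levels, where values are coarse. Herc3, Smc2 and Nthl1 are among these dim ones. The saline differences of Spn, Nthl1, Neil1, Acaa2, Smc2, Mal and Herc3, none called, ran from -0.24 for Smc2 to 0.31 for Nthl1. For none of them was the AMPH difference called different from that of saline (adjusted p from 0.0687 for Smc2 to 0.214 for Neil1).

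Single genes or pairs were called in more lists, beside shares of 0.775% of all genes higher and 1.11% lower. Cdkn1a was also the only called gene of 21 in the p53 list, and Csf1r of 28 in the cytokine receptor list. Psma7 was the only called gene of 36 in the proteasome list. Serping1, the inhibitor of the first complement component, fell by 1.10 ± 0.26 (adjusted p = 0.0379; 1 of 25 acute phase and complement genes), and Pcna, the sliding clamp of DNA replication, fell by 0.75 ± 0.19 (adjusted p = 0.0468; 1 of 37 cell cycle genes). In the respiratory chain 2 of 61 genes fell, against 1.11% of all genes, Cox7b by 0.72 ± 0.19 (adjusted p = 0.0493) and Atp5pd by 0.66 ± 0.16 (adjusted p = 0.0379). The count was 0 with the values as deposited, with quantile normalization and with the same 75th percentile, and 0 or 1 without any single AMPH array. For Cox7b the saline difference was of like size, -0.77 (adjusted p = 0.0511). No gene of the lists for cytosolic ribosomal proteins (64 tested), interferon response (25), circadian clock (18) or cholesterol synthesis (18) was called.

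The saline times differed too, in 81 of 9707 genes (0.834%), 33 higher and 48 lower at 1 day. Leaving out any single saline array moved that count, to 363 without saline 1 day replicate 1 and to between 4 and 18 without each of the others. The split was 45 higher and 12 lower with the values as deposited, 33 and 21 with the same 75th percentile, and 24 and 104 with the median over every probe. Of the 187 genes called after AMPH, 11 were called after saline. The 77 rises after AMPH had a median of 1.09 after AMPH and 0.18 after saline, with 51 of 75 tested in saline in the same direction and 0 called there, against 0.340% of all genes higher. The 110 falls had a median of -1.16 after AMPH and -0.22 after saline, with 73 of 110 in the same direction and 8 called lower, against 0.494% of all genes lower. Ly6g6c, of the Ly6 family of surface proteins, fell by 1.83 ± 0.36 after AMPH (adjusted p = 0.0166) and by 1.73 after saline (adjusted p = 0.0421), so its change over time was shared. The phosphatase gene Dusp1 fell after saline by 2.01 (adjusted p = 0.0348), while its AMPH difference was -0.19 ± 0.40, and the chitinase-like Chi3l1 fell after saline by 1.80 (adjusted p = 0.0451), with an AMPH difference of -0.46 ± 0.42. For neither gene was the difference between the treatments called (adjusted p = 0.143 for Dusp1 and 0.298 for Chi3l1).

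Set against saline of the same time, the 77 rises had a median of 0.07 at AMPH 1 day and -0.80 at AMPH 3 h, and the 110 falls -0.19 at AMPH 1 day and 0.94 at AMPH 3 h. At 3 h, 42 of 76 rises were called below saline and 57 of 110 falls were called above it, where 5.33% and 4.68% of all genes were. At 1 day, 2 of 75 rises were called above saline, against 1.55% of all genes, and 11 of 110 falls below it, against 0.551%. These comparisons use the same AMPH arrays that made the calls, so the values are given as a description.

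The EIH times share no array with the AMPH times, though they share the scaling sets. For EIH 1 day replicates 1, 2 and 3 the treatment label is in doubt, because pools that list the same rats are titled Control. Both sets of calls also use the spread shared over the blood groups, which the EIH arrays helped to set. A gene with a small shared spread is called more readily in both. The shares of all genes called after EIH are thus not a matched background, and the counts of calls are a description. The direction and size of the EIH differences do not use that spread. Over all genes tested, 49.07% were higher at EIH 1 day than at EIH 3 h. Of the genes higher at AMPH 1 day, 72 of 76 were also higher at EIH 1 day than at EIH 3 h, and 62 were called so, where 11.4% of all genes were called higher and 21.2% in either direction. Of the genes lower at AMPH 1 day, 94 of 110 were lower at EIH 1 day, 77 were called lower, where 9.88% of all genes were, and 4 were called higher. Median differences were 1.09 after AMPH and 1.05 after EIH for the rises, and -1.16 after AMPH and -1.02 after EIH for the falls. Cirbp was higher at EIH 1 day by 3.42 and Hcar2 lower, with a difference of -5.33.

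**Figure D4:**
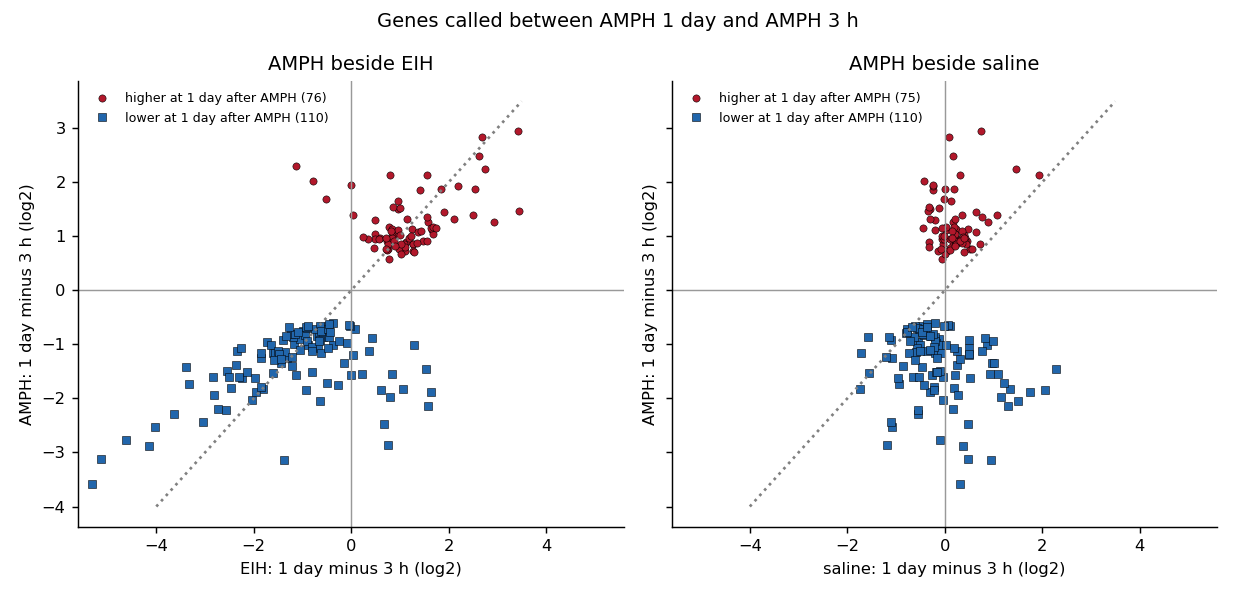
Log2 difference between 1 day and 3 h after AMPH (vertical) against that after EIH (left panel) and after saline (right panel) for the genes called after AMPH (circles higher, squares lower; dotted line marks equal differences). Most points share their direction with EIH (72 of 76 and 94 of 110), while saline differences centre near 0 (medians 0.18 and -0.22).

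In 44 of 9492 genes (0.464%) the time difference after AMPH differed from that after saline by the test of the difference itself. In 41 it was lower after AMPH (0.432%) and in 3, Cdr2, Slc35a1 and Tsnax, higher (0.0316%), and all 41 were lower at AMPH 1 day than at AMPH 3 h but higher at saline 1 day than at saline 3 h. Under the 5 scalings, 37 to 41 genes were called lower, and in a fit of the AMPH and saline arrays alone 23 were. The count of 44 became 28, 24, 140 and 27 without AMPH 1 day replicates 1 to 4, 29 and 80 without AMPH 3 h replicates 2 and 3, 152 without saline 1 day replicate 1 and 28 without saline 3 h replicate 1. Of the 44, 22 were also called between the AMPH times.

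Col9a2, a chain of cartilage collagen IX, measured 4.35, 5.41, 4.04 and 4.26 at AMPH 1 day, against 7.30, 8.20, 7.48 and 7.62 at AMPH 3 h. In saline it measured 6.98, 7.48 and 7.60 at 1 day, with 1 blank, against 6.96, 5.97, 6.22 and 6.44 at 3 h. All 4 AMPH 1 day arrays thus lay below every other array of these groups, and the AMPH difference was -3.13 ± 0.33 (adjusted p = 0.000136), that of saline 0.96 and that between them -4.09 ± 0.49 (adjusted p = 0.000469). Elf4, an ETS transcription factor of lymphocytes, measured 7.84, 7.48, 7.98 and 8.04 at AMPH 1 day, against 10.37, 9.44, 8.86 and 8.51 at AMPH 3 h. In saline it measured 8.94, 9.21, 8.08 and 8.85 at 1 day, against 6.83, 6.82, 6.57 and 5.72 at 3 h. The order of the times was thus opposite in the 2 treatments with no overlap in either (difference between them -3.75 ± 0.51, adjusted p = 0.00114). Pcdhb4, a protocadherin, had the largest value, -4.67 ± 0.84 (adjusted p = 0.0108), followed by the zinc transporter Slc39a5 at -4.39 ± 0.74 (adjusted p = 0.00921). Tph1, the enzyme of serotonin synthesis outside the brain, had -2.96 ± 0.53 (adjusted p = 0.0108), with 7.46, 6.49, 7.53 and 7.61 at AMPH 1 day against 10.29, 9.64, 9.70 and 9.34 at AMPH 3 h. The other large ones were Gulo at -3.94 (adjusted p = 0.0382), the enzyme of the last step of vitamin C synthesis, the GABA transporter Slc6a13 at -3.91 (adjusted p = 0.00921), Mkrn3 at -3.63 (adjusted p = 0.0140), Zbtb39 at -3.55 (adjusted p = 0.0272), Hspa4 at -3.43 (adjusted p = 0.00921) and Dnajc5 at -3.13 (adjusted p = 0.00921).

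**Figure D5:**
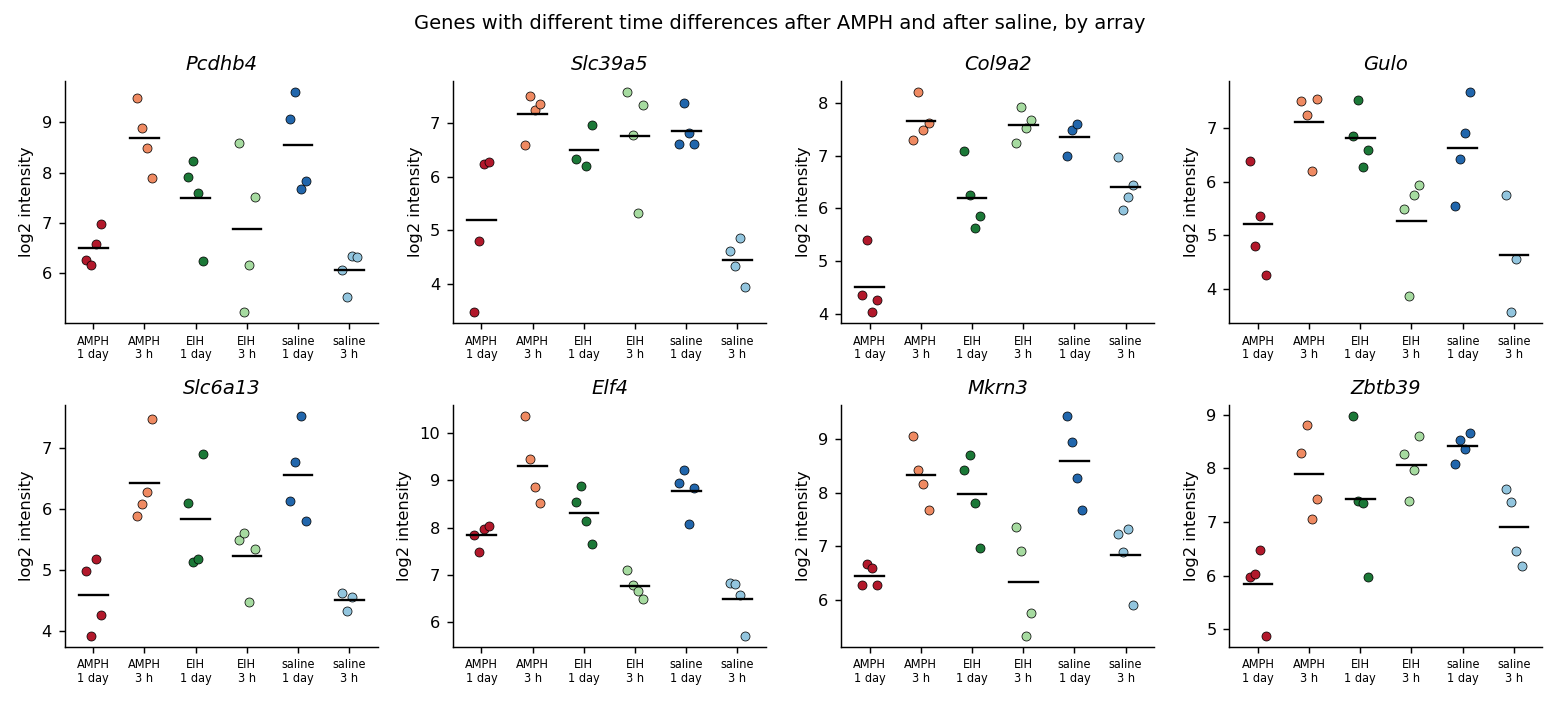
Log2 intensity (vertical) of 8 genes whose time difference differed between AMPH and saline, on each array of AMPH, EIH and saline at 1 day and 3 h (points; bars are group means). Of the AMPH and saline groups, AMPH 1 day and saline 3 h are the low ones and AMPH 3 h and saline 1 day the high ones, as for Elf4, with 7.48 to 8.04 at AMPH 1 day and 8.51 to 10.37 at AMPH 3 h.

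The median group level of the 41 genes was 7.75 at AMPH 1 day, 9.23 at AMPH 3 h, 8.80 at saline 1 day and 7.80 at saline 3 h. Relative to saline 3 h, the mean over 36 of them with all values was 0.07 to 0.65 on the AMPH 1 day arrays, 1.31 to 1.76 on the AMPH 3 h arrays and 1.07 to 1.34 on the saline 1 day arrays. These values chose the genes and are a description. The EIH arrays entered the choice through the spread shared over the blood groups, but not through their own time difference. The median of the EIH time difference was 0.00, with 21 of 41 differences above 0, where 49.07% of all genes were. At EIH 1 day 5 were called higher and 6 lower, where 11.4% and 9.88% of all genes were, so these counts were near the shares over all genes.

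Several of the 41 genes are known from tissues other than blood, among them Otx1 (brain), Rbp3 (retina), Mobp (myelin) and Csn2 (milk). For 8 of the 41 another probe could be read, 9 probes in all. The median difference between the treatments was -0.26 over these probes, ranging from -1.95 to 0.70, against -2.41 over the brightest probes of the same genes. The second probe of Asb6, as bright as 10.68 on average, gave 0.01, against -2.65 for the brightest probe, and that of Hspa4, at 10.46, gave -0.26, against -3.43. By contrast the other probe of Cav3, at 4.79, gave -1.95, against -1.91, and that of Strn4, at 6.69, gave -0.87, against -1.71. For the 63 genes called between the AMPH times that have other probes, 61 of 74 other probes shared the direction, with a median of 0.53 in that direction over the other probes, against 1.10 over the brightest. Whether the brightest probes of the 41 genes measure the named transcript was not tested. The sources used here record no hybridisation batch, so its part in the pattern of these genes could not be tested.

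In 19 of 9663 genes (0.197%) the time difference after AMPH differed from that after EIH, 5 higher (0.0517%) and 14 lower (0.145%). Leaving out single arrays gave counts from 3 (AMPH 3 h replicate 3) to 41 (EIH 3 h replicate 1). Tph1 (-3.15 ± 0.53, adjusted p = 0.0198), Elf4 (-3.01 ± 0.51, adjusted p = 0.0198), Mkrn3 (-3.52 ± 0.67, adjusted p = 0.0381) and Hspa4 (-3.71 ± 0.60, adjusted p = 0.0198) were among the 14. Hspa4 measured 13.25, 13.48, 12.23 and 11.71 at EIH 1 day, against 11.37, 11.15, 10.93 and 10.92 at EIH 3 h. Among the 6 chaperone genes called after AMPH, Hspa4 was the one with the opposite direction after EIH (1.58, adjusted p = 0.0105).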

How the data were processed

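Blood RNA was labelled with Cy3 (Agilent Quick Amp kit) and hybridised to 1-colour arrays, per the labels' protocols. The authors deposited linear intensity values for 14055 probes on 44 arrays; the sources used here give neither their normalization nor the rule for blank cells (8.57% of blood values). Values were taken as log2, blanks stayed missing, and each array was shifted to the same median over 8714 probes with a value on all 24 blood arrays. Of the probes, 12926 had 1 gene symbol, 1129 had none and 0 had several; the brightest probe stood for each of 10412 genes. Genes with at least 2 values per compared group were fitted with limma 3.58.1 (R 4.3.3) by group means over 24 blood arrays and called at adjusted p under 0.05; a time difference after AMPH was set against that after saline or EIH as a contrast. Differences in 32 gene lists are counts and medians without a test. Members, lists and the rule for named genes were chosen with earlier results of these data known. The rule took the 12 largest rises and falls without overlap and with 3 values a group (4 after saline), the 8 and 4 largest of the differences between treatments, the 4 lowest p in each list, and fixed markers; not all are printed, and genes added after their values were seen are Zfand2a, Otx1, Slc20a2, Rbp3, Mobp, Csn2, Cav3, Strn4, Asb6, Cdr2, Slc35a1 and Tsnax. Replicate numbers follow accession order and pair nothing. With 4 rats a group, precision is limited by the number of arrays. The steps were tested on simulated data. Figures used matplotlib in Python. Alternatives were 4 other scalings, filters on dim and incomplete genes, an intensity trend with robust spread, array weights, the mean over probes, a fit of the compared groups alone, and leaving out each array; the fit without saline 1 day replicate 4 where that group is not compared, and the chaperone count under each setting, were added after seeing the data.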

Additional observations from a re-analysis of the deposited data

Results flagged for a closer look

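Among 263 groups of 4 arrays tested for genes and lists named above, 14 (5.32%) had an array whose gap to its nearest neighbour took up most of the group's range, and chance alone gives about 1 in 20. In AMPH 1 day these were Tph1 (replicate 2 at 6.49, the others 7.46 to 7.61, gap over range 0.860) and Il1b (replicate 4 at 14.52, the others 13.29 to 13.36, 0.944). In AMPH 3 h they were Stfa2l3 (replicate 2 at 14.10, 0.860), Dnajc5 (replicate 1 at 10.81, the others 9.25 to 9.42, 0.895), Dusp1 (replicate 1 at 10.32, 0.873) and Dnajb1 (replicate 3 at 10.30, the others 12.13 to 12.50, 0.833). In saline 1 day they were Spn (0.842), Csf1r (0.992), Ier3 (0.840) and Vegfa (replicate 4 at 6.999, the others 5.23 to 5.51, 0.845). In saline 3 h they were Klf4 (0.876), Chac1 (replicate 4 at 9.62, the others 8.09 to 8.33, 0.843), Ier3 (0.862) and Fosl2 (0.843).

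The time difference differed between AMPH and saline, by the test of that difference, for Pcdhb4 (-4.67), Slc39a5 (-4.39), Col9a2 (-4.09), Gulo (-3.94), Slc6a13 (-3.91), Elf4 (-3.75), Mkrn3 (-3.63), Zbtb39 (-3.55), Hspa4 (-3.43), Otx1 (-3.18), Dnajc5 (-3.13), Tph1 (-2.96), Slc20a2 (-2.94) and Asb6 (-2.65). Otx1 measured 7.22, 7.48, 8.53 and 7.55 at AMPH 1 day, against 9.89, 9.25, 9.45 and 9.52 at AMPH 3 h. Slc20a2, a phosphate transporter, measured 7.01, 6.67, 6.36 and 6.04 at AMPH 1 day, against 8.51, 7.96, 8.36 and 8.13 at AMPH 3 h.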

How the results depend on the processing

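Against 187 genes between the AMPH times, 81 between the saline times, 44 for AMPH against saline, 19 for AMPH against EIH and 6 chaperone genes lower, quantile normalization gave 94, 12, 39, 19 and 3, and the median over every probe gave 128 for the saline times. Without the dimmest 25% of genes the first 4 counts were 320, 140, 80 and 35, with genes measured on every blood array 381, 179, 77 and 59, with an intensity trend and robust spread 321, 188, 88 and 53, and with array weights 903, 238, 325 and 75. With only the compared groups they were 0, 0, 25 and 2, with 1521, 1230, 1242 and 1363 genes at an unadjusted p under 0.05, and 0 chaperone genes were called. With the mean over a gene's probes the counts were 79, 46, 36 and 3, with 3 chaperone genes. Leaving out 1 array gave 18 to 320, 4 to 363, 24 to 152 and 3 to 41 genes, and 1 to 8 chaperone genes. The cause was not tested. Over the named genes and settings, 1170 values kept direction and call, 354 were no longer called, 14 were newly called and 9 changed sign. Those 9 belong to genes that were not called: Pf4 (-0.09) gave 0.031 as deposited and -0.18 to 0.004 when 1 array was left out. Dnajb1 (0.05) gave -0.085 with the median over every probe and -0.467 to 0.327 when 1 array was left out. Leaving out 1 array gave -0.463 to 0.066 for Dusp1 (-0.19) and -0.429 to 0.094 for the chemokine receptor gene Cxcr2 (-0.13). No paired analysis was possible because replicate numbers follow accession order and the labels pair no rats. Dim genes have coarse values, which limits fold changes at low signal.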
